A study of Mus musculus with 20 samples.

Results

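The 10 genes followed here encode the core of the NF-kB pathway in B cells: the 5 subunits (Rela, Rel, Relb, Nfkb1 and Nfkb2), 3 feedback inhibitors (Nfkbia, Nfkbie and Tnfaip3), the adaptor Traf1 and the receptor Cd40. They were chosen by name and matched by symbol to the Ensembl identifiers of the count table. All 10 were found, and all 10 passed the filter on low counts that left 17824 genes for testing. The study measured messenger RNA of mouse cells bound to magnetic microbeads against B220, a CD45 form carried by B cells, in 3 groups on the C57BL/6 background. The normal group (n = 4) came from spleen, with no transgene named in the labels. The vector group (n = 8) came from VavPBcl2/vector lymphomas and the Myc group (n = 8) from VavPBcl2/Myc lymphomas, transduced with an empty vector or with Myc. Both lymphoma groups thus carry the VavPBcl2 transgene, which makes the survival protein Bcl2 in blood cells under control of Vav sequences. Ages, the number of animals and whether replicates came from separate animals are not given in the sources used here, so the p-values rest on the spread between samples, which may be technical.

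NF-kB proteins are transcription factors that act as dimers. In the canonical branch, signals from antigen, Toll-like and tumour necrosis factor receptors lead to the removal of IkB inhibitors, which frees dimers of RelA, c-Rel and p50, the processed product of Nfkb1. In the non-canonical branch, receptors such as CD40 and the BAFF receptor stabilise the kinase NIK, which drives processing of the Nfkb2 product p100 to p52, the partner of RelB. Many genes of the pathway are themselves targets of NF-kB, among them Nfkb2, Relb and the inhibitors, so the pathway restrains and renews itself. In mature B cells it serves survival, activation and the response to T cell help. The subunits act through release and processing of protein, which RNA levels do not measure.

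The sequence before the start sites of these genes is shown first, as a description. RefSeq promoter windows (build GRCm38.p6, 250 bases before the start) matched 7 of the 10 genes; Nfkb1, Relb and Cd40 are named only. The kB consensus, searched on both strands, was found in 5 of these 7 windows (Rel, Nfkb2, Nfkbia, Nfkbie and Tnfaip3) and in 7.25% of 32851 windows of the same length. It was not found in the windows of Rela and Traf1, which says only that these letters are not there. The E-box CACGTG, a sequence that Myc and related factors can bind, was found in the Tnfaip3 window and in 6.02% of all windows. The stretches below run 5′ to 3′ along the gene, in lower case with matches in capitals, and end at or next to the start site except for Nfkb2. For Rel and Tnfaip3 only the longest stretch outside the exons of GENCODE vM21 is shown. For Nfkb2, whose whole window lies in a first exon of another annotated transcript, only 30 bases around a match are shown. In Rel and Nfkb2 a match on the plus strand and a match on the opposite strand overlap within the capitals. The Nfkb2 window also holds a further match, GGGGCTTTCC, starting 11 bases before the start site. In Tnfaip3 the outer 2 matches are kB and the middle one is CACGTG.
Rel, chr11:23770971-23771219, minus strand: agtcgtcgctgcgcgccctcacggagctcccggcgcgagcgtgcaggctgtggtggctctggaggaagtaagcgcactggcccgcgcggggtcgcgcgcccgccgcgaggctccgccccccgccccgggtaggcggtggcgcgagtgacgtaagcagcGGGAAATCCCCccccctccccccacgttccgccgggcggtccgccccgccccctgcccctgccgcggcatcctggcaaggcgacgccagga
Nfkb2, chr19:46304688-46304717, plus strand: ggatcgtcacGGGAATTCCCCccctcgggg
Nfkbia, chr12:55492648-55492897, minus strand: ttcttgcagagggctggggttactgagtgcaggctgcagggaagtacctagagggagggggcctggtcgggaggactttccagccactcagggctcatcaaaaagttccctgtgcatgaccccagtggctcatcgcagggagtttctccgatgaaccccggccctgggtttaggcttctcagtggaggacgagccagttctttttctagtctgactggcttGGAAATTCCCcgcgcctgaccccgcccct
Nfkbie, chr17:45555450-45555699, plus strand: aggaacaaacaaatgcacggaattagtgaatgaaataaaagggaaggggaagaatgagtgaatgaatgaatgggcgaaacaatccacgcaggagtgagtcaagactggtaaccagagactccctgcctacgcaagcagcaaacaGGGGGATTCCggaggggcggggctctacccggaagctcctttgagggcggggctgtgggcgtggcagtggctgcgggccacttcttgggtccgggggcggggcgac
Tnfaip3, chr10:19015411-19015547, minus strand: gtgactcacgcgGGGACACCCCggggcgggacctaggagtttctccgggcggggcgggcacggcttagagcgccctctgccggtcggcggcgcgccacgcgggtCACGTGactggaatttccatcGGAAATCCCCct
A match is a description of letters and not a measured binding site.

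Each sample held 28.7 to 56.3 M reads counted to genes (M for 1e6), which were 37.1 to 57.0% of its reads. The Myc transcript itself lay at 313 to 1646 CPM (counts scaled to a library of 1e6) in the Myc group, against 48.3 to 226 in the vector group and 179 to 343 in normal cells. The run numbers in the labels count separately on each sequencer, and on each of them they form an earlier and a later series with a gap between. Joined over the sequencers, with no dates at hand, 7 samples (normal replicate 1 and vector replicates 1 to 6) belong to the later runs and 13 to the earlier ones. Myc can therefore be set against vector within 1 run block only as 8 samples against vector replicates 7 and 8, whose titles carry a prefix of their own, and these values are given beside the pooled ones. B cell markers differed as well. The summed level of 10 markers lay at 6970 to 8209 CPM in normal cells, 6552 to 10354 in the vector group and 1862 to 5945 in the Myc group. Of the 10, 9 fell in Myc against vector lymphomas (21.9% of all genes), 5 within the earlier runs (4.4% of all genes) and 6 with the run block as a term in the fit (9.77%). Among the 9 was Ptprc, which encodes CD45 and fell by 0.79 ± 0.27 (SE) on the log2 scale (-0.85, adjusted p = 0.32, within the earlier runs), and 0 of the 10 were called in vector lymphomas against normal cells. No marker of any list was at 0 in all samples of a group. In these bulk samples, fewer B cells and less RNA per cell cannot be told apart.

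All 10 NF-kB genes were lower in Myc than in vector lymphomas, by a median of 1.69 on the log2 scale (log2 fold change -1.69), while the median over all tested genes was 0.08. The largest falls were in Cd40 (4.59-fold lower), Tnfaip3 (4.42-fold), Nfkb2 (3.75-fold), Rel (3.51-fold) and Nfkbie (3.47-fold), and the smallest was in Rela (1.36-fold). Of all genes tested, 21.9% fell, 26.6% rose and 48.6% did either at an adjusted p under 0.05 (edgeR's quasi-likelihood test with Benjamini-Hochberg adjustment, n = 8 and 8). In 7 of the 10 every Myc sample lay below every vector sample, as it did in 6.38% of all genes, and 5.12% lay wholly above. Within the earlier runs 6 of the 10 fell (Relb, Nfkb2, Nfkbia, Nfkbie, Traf1 and Cd40), where 4.4% of all genes fell. The values of Rela, Rel, Nfkb1 and Tnfaip3 there were -0.33, -1.53, -0.44 and -1.71, at adjusted p-values of 0.39, 0.23, 0.37 and 0.26. The same 6 were called when the run block was a term in the fit of all 20 samples, where 9.77% of all genes fell.

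**Figure D1:**
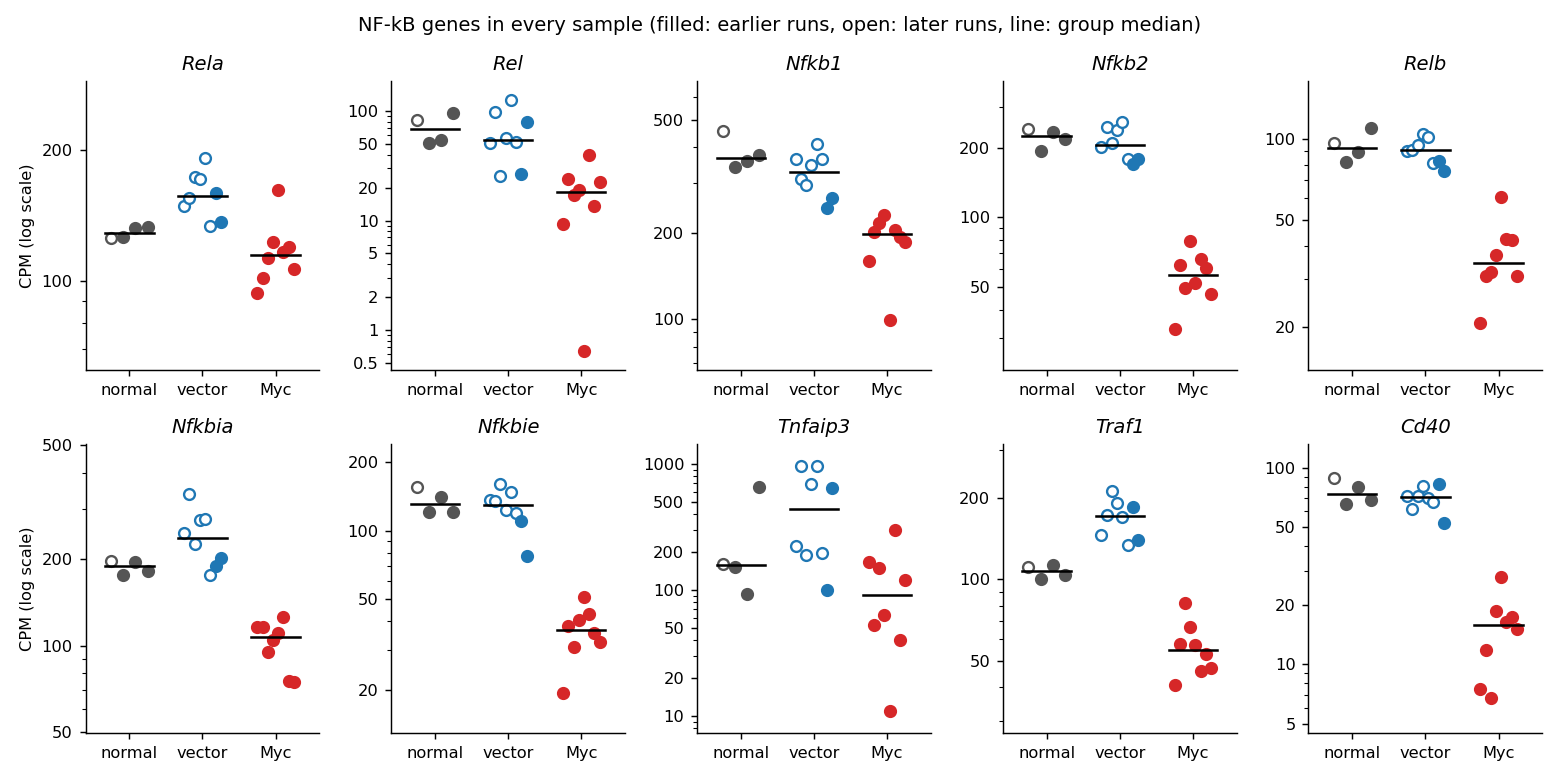
Level of each NF-kB gene in each of the 20 samples, in CPM on a log axis, by group. Points are samples (filled for earlier, open for later sequencing runs) and lines are group medians; Myc lymphomas lie below the other groups in most panels, and Myc replicate 5 stands far below the rest of its group for Rel and Nfkb1.

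Among the canonical subunits, Rela, which encodes the transactivating subunit p65, differed least. Its level was 126, 126, 133 and 133 CPM in normal replicates 1 to 4. It ran from 134 to 192 (median 157) in vector lymphomas and from 93.7 to 162 (median 115) in Myc lymphomas. The lymphoma groups overlap, because Myc replicate 5 at 162 CPM lies above 5 of the 8 vector samples. Rela fell by 0.44 ± 0.12 (SE) on the log2 scale in Myc against vector lymphomas (adjusted p = 0.0052).

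Rel, which encodes c-Rel, the subunit most restricted to lymphoid cells, was among the most variable of the 10. Normal replicates 1 to 4 held 82.4, 50.6, 54.3 and 96.4 CPM. Vector lymphomas ran from 25.6 to 125 (median 54.4) and Myc lymphomas from 0.645 to 39.98 (median 18.1). All Myc samples lie below all normal ones, but the 2 lowest vector samples, replicates 3 and 7, lie within the Myc range. Rel fell by 1.81 ± 0.47 on the log2 scale against vector lymphomas (adjusted p = 0.0033) and by 1.95 ± 0.53 against normal cells (adjusted p = 0.0069, or -1.84 and 0.052 within the earlier runs).

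Nfkb1, the gene of p105 and its product p50, stood at 456, 342, 357 and 377 CPM in normal replicates 1 to 4, at 245 to 410.0 (median 328) in vector lymphomas and at 99.2 to 231 (median 198) in Myc lymphomas. No Myc sample reached any sample of the other groups. The fall was 0.80 ± 0.16 on the log2 scale against vector lymphomas (adjusted p = 4.5e-04) and 1.04 ± 0.19 against normal cells (adjusted p = 3.3e-04). Its values in vector replicates 7 and 8, the earlier runs, were 245 and 265 CPM, below all 6 later-run vector samples (296 to 410.0), and the part of the run in the lymphoma difference was not tested beyond the within-run value above.

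Of the non-canonical subunits, Nfkb2 had the largest fall of the 5 subunits, while that of Relb was smaller than that of Rel. Nfkb2, the gene of p100 and p52, held 240.5, 193, 233 and 218 CPM in normal replicates 1 to 4, and 171 to 259 (median 206) in vector lymphomas. In Myc lymphomas it held 32.8 to 78.9 CPM (median 56.2), so that the highest Myc sample had less than the lowest of all others. Nfkb2 fell by 1.91 ± 0.16 on the log2 scale against vector lymphomas (adjusted p = 2.8e-08, or -1.63 and 0.0015 within the earlier runs) and by 1.98 ± 0.18 against normal cells (adjusted p = 3.7e-07). It ranked 39 by p among the 17824 genes of the first comparison and 16 in the second. Psd, a gene on the opposite strand, shares exon sequence with Nfkb2, and the strand setting of the counting was not given. Psd held 21 to 79 counts per sample, at most 3.81% of the Nfkb2 counts of the same sample.

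Relb, whose product pairs with p52, lay at 96.6, 82.4, 89.1 and 109 CPM in normal replicates 1 to 4 and at 75.8 to 105 (median 90.6) in vector lymphomas. It lay at 20.6 to 60.8 CPM (median 34.5) in Myc lymphomas, without overlap, the highest being Myc replicate 5. The fall was 1.28 ± 0.17 on the log2 scale against vector lymphomas (adjusted p = 4.2e-06, or -1.09 and 0.028 within the earlier runs) and 1.35 ± 0.19 against normal cells (adjusted p = 2.9e-05).

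The balance of the branches was described within each sample, with no test. The mean log2 CPM of Nfkb2 and Relb minus that of Nfkb1, Rela and Rel ran from -0.14 to 0.07 in normal cells and from -0.40 to 0.37 in vector lymphomas. In Myc lymphomas it ran from -1.01 to -0.43 in 7 samples and stood at 1.33 in Myc replicate 5, where Rel held 15 counts. The mean difference between Myc and vector lymphomas was -0.49, and -0.76 without that sample. Rel has the widest range of the 5 genes, so the paired genes were set against each other as well. The log2 ratio of Nfkb2 to Nfkb1 was -0.79 ± 0.13 (SD, n = 4) in normal cells, -0.63 ± 0.22 (SD, n = 8) in the vector group and -1.74 ± 0.42 (SD, n = 8) in the Myc group. Myc replicate 5, at -0.93, was the highest of the Myc lymphomas and lay inside the vector range of -1.04 to -0.33, while the other 7 ran from -2.28 to -1.55. The log2 ratio of Relb to Rela was -0.46 ± 0.16 in normal cells, -0.81 ± 0.09 in the vector group and -1.70 ± 0.25 in the Myc group (SD, n = 4, 8 and 8), with no overlap between any of the groups. Both ratios were thus lower in the Myc lymphomas, with the 1 sample named as the exception for Nfkb2 to Nfkb1.

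**Figure D2:**
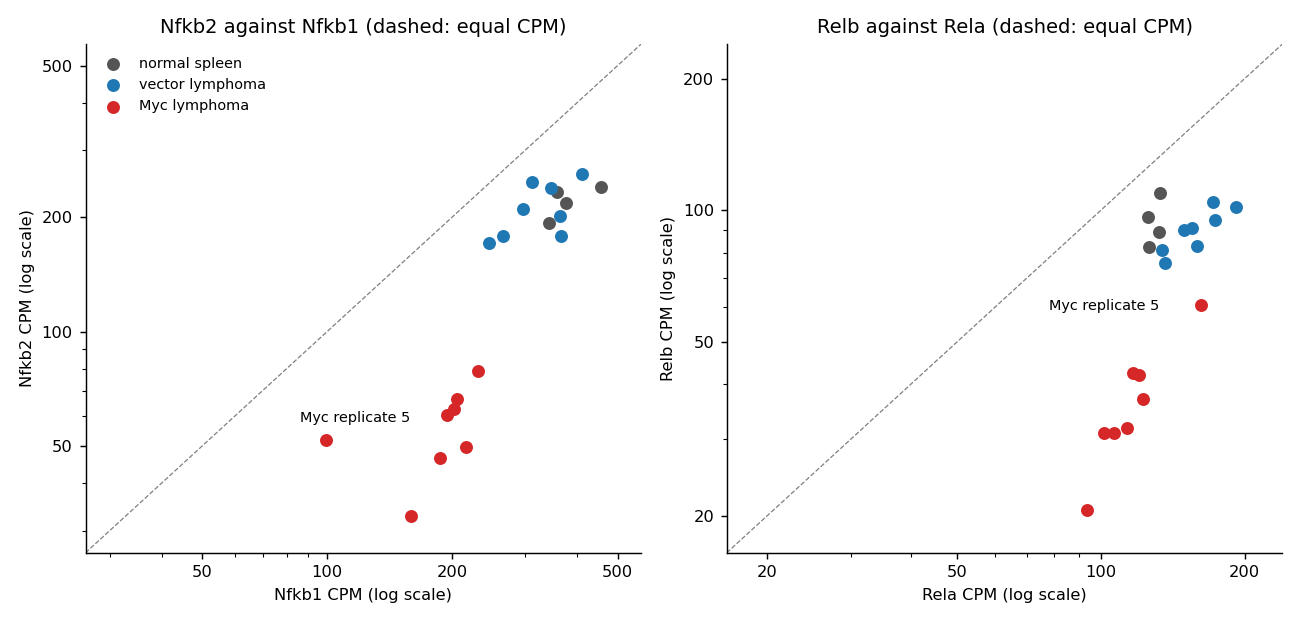
CPM of Nfkb2 against Nfkb1 (left) and of Relb against Rela (right) in each of the 20 samples, on log axes, with a dashed line where both genes have equal CPM. Myc lymphomas lie furthest below the line in both panels, except that Myc replicate 5 stands to the left of the other Myc lymphomas for Nfkb1, at 99.2 CPM.

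Of the inhibitors, Nfkbia encodes IkB-alpha, which holds NF-kB in the cytoplasm and is made anew when NF-kB is active. Normal replicates 1 to 4 held 197, 177, 196 and 183 CPM. Vector lymphomas ran from 177 to 338 (median 237) and Myc lymphomas from 74.4 to 126 (median 107), below every sample of the other groups. Nfkbia fell by 1.24 ± 0.15 on the log2 scale against vector lymphomas (adjusted p = 2.4e-06, or -0.93 and 0.025 within the earlier runs) and by 0.88 ± 0.18 against normal cells (adjusted p = 7.9e-04).

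Nfkbie, the gene of IkB-epsilon, an inhibitor of c-Rel and RelA dimers, held 155, 120.2, 141 and 121 CPM in normal replicates 1 to 4. It held 77.3 to 160.4 CPM (median 129) in vector lymphomas and 19.5 to 51.0 (median 36.8) in Myc lymphomas, again without overlap. The fall was 1.80 ± 0.17 on the log2 scale against vector lymphomas (adjusted p = 1.4e-07, or -1.36 and 0.0061 within the earlier runs) and 1.89 ± 0.20 against normal cells (adjusted p = 1.3e-06). Vector replicates 7 and 8, at 109.7 and 77.3 CPM, were the lowest of their group here as for Nfkb1.

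Tnfaip3 encodes A20, an enzyme that edits ubiquitin chains and ends NF-kB signalling. Its level varied widely within each group. Normal replicates 1 to 4 held 162, 153, 92.8 and 657 CPM, vector lymphomas 99.2 to 964 (median 436) and Myc lymphomas 11.0 to 297 (median 91.7). All 3 groups overlap. Tnfaip3 fell by 2.14 ± 0.60 on the log2 scale in Myc against vector lymphomas (adjusted p = 0.0057). Against normal cells the values were -1.24 ± 0.68 for Myc lymphomas (adjusted p = 0.15) and 0.90 ± 0.73 for vector lymphomas (adjusted p = 0.48), or -0.25 and 1.90 without normal replicate 4. A set of 14 immediate-early and dissociation response genes, which rise quickly when cells are stimulated or handled, was summed beside it. The sum was highest in normal replicate 4 among normal cells (5515 CPM of 1058 to 5515), in Myc replicate 6 among Myc lymphomas (3270 of 395 to 3270) and in vector replicate 2 among vector lymphomas (16994 of 2474 to 16994). Tnfaip3 was highest in the first 2 of these samples within their groups and at 963 CPM in vector replicate 2. Rel was highest in the same 2 samples (96.4 and 39.98 CPM). Nfkbia was highest in Myc replicate 6 (126) and vector replicate 2 (338). Rela and Relb were highest in normal replicate 4 only, and Nfkb1, Nfkb2, Nfkbie, Traf1 and Cd40 in none of these samples. All 14 response genes fell in Myc against vector lymphomas, and their part in the differences of Tnfaip3 and the other NF-kB genes was not tested.

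Traf1, an adaptor of the tumour necrosis factor receptor family that is induced by NF-kB, was the only one of the 10 called between vector lymphomas and normal cells. It held 111, 100.1, 113 and 104 CPM in normal replicates 1 to 4, 134 to 211 (median 171) in vector lymphomas and 40.6 to 81.5 (median 55.0) in Myc lymphomas. The 3 groups do not overlap. Traf1 rose by 0.65 ± 0.18 on the log2 scale in vector lymphomas against normal cells (1.57-fold, adjusted p = 0.021). It fell by 1.58 ± 0.15 in Myc against vector lymphomas (adjusted p = 7.8e-08, or -1.52 and 0.0014 within the earlier runs) and by 0.93 ± 0.17 in Myc lymphomas against normal cells (adjusted p = 3.1e-04). The rise in vector lymphomas lost its call within the earlier runs (0.63, adjusted p = 0.49), with the run term (0.62 and 0.069), with scaling to total counts (0.50 and 0.13) and without normal replicate 2 (0.66 and 0.054) or 4 (0.68 and 0.056).

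Cd40, the receptor through which T cells engage both branches of the pathway, held 88.2, 65.3, 79.5 and 68.3 CPM in normal replicates 1 to 4. Vector lymphomas ran from 52.2 to 82.97 (median 71.1), within or near the normal range, and Myc lymphomas from 6.73 to 27.7 (median 15.8). The lowest sample of the other groups held more Cd40 than the highest Myc lymphoma, which was Myc replicate 5. Cd40 fell by 2.20 ± 0.23 on the log2 scale against vector lymphomas (4.59-fold, adjusted p = 2.9e-07, or -2.15 and 0.0028 within the earlier runs) and by 2.31 ± 0.26 against normal cells (4.96-fold, adjusted p = 2.1e-06).

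In vector lymphomas against normal cells 1 of the 10 genes rose, 0 fell and 9 were not called, where 7.46% of all genes rose, 3.36% fell and 10.8% were called in either direction. The median of the 10 was -0.07 on the log2 scale and that of all genes -0.03. By non-overlap 2 of the 10 were higher in every vector sample (Traf1 and Rela), against 7.33% of all genes, 0 were lower in every vector sample (5.91% of all genes), and the Rela value was 0.30 ± 0.15 (adjusted p = 0.23). The fits without 1 normal sample turned the sign of 5 uncalled values: Nfkb2, Nfkbie and Cd40 became 0.022, 0.040 and 0.025 without normal replicate 1, and Rel and Relb became 0.075 and 0.051 without normal replicate 4.

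In Myc lymphomas against normal cells 8 of the 10 fell and Rela (-0.14 ± 0.15, adjusted p = 0.45, or -0.36 and 0.046 with scaling to total counts) and Tnfaip3 were not called, where 17.9% of all genes fell and 39.4% were called. The same 8 did not overlap with normal cells, where 14.3% of all genes lay wholly below and 27.4% wholly below or above. The median of the 10 was -1.29 on the log2 scale and that of all genes 0.08. This comparison shares its Myc samples with the comparison of lymphomas, and both comparisons with normal cells share the normal samples, so the 3 are not independent.

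**Figure D3:**
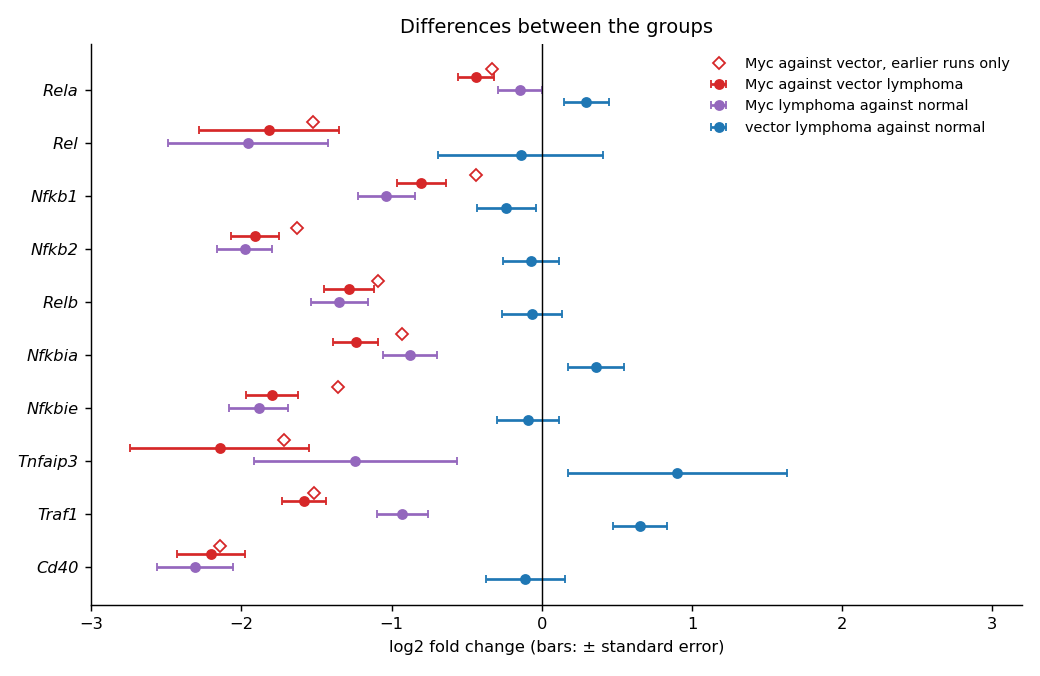
Log2 fold change of each NF-kB gene in the 3 comparisons, with bars for the standard error of edgeR's quasi-likelihood fit, and as open diamonds the value of Myc against vector lymphoma within the earlier runs. Values for Myc lie left of 0 against both other groups, the least for Rela, and vector against normal lies near 0 except for Traf1, Nfkbia, Rela and Tnfaip3, of which only Traf1 was called.

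Set per kilobase of exon sequence, which allows genes to be ranked, Nfkbia had the highest and Rel the lowest level of the 10 in all 3 groups. In normal cells Nfkbia stood at 117 ± 6.20 CPM per kilobase (SD, n = 4) and Rel at 9.50 ± 2.97. Nfkb2 (48.3 ± 4.58), Nfkbie (44.1 ± 5.53) and Rela (42.1 ± 1.27) followed Nfkbia, with overlapping ranges. In vector lymphomas Rela (51.7 ± 6.38, n = 8), Nfkb2 (45.9 ± 7.48) and Nfkbie (41.4 ± 8.32) again had overlapping ranges. In Myc lymphomas Rela, at 38.1 ± 6.67 CPM per kilobase (SD, n = 8), stood above Nfkb2 (12.3 ± 3.07) and Nfkbie (11.9 ± 3.07) without overlap. Lengths are those of all exons of a gene in GENCODE vM21, a later annotation than that of the files.

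Since B cell markers fell in the same samples, each NF-kB gene was also set against the summed level of the 10 B cell markers in its sample, a description added after the values were seen. The marker sum itself differed by -1.38 on the log2 scale between Myc and vector lymphomas. Taken singly, the markers had a median log2 fold change of -1.66. With the run term they ran from -2.26 (Cd22) to -0.76 (Ptprc), while Cd40 ran from -2.37 to -2.09 over the alternative fits. Some B cell markers thus fell about as far as Cd40. Relative to the marker sum, Cd40 was lower in every Myc than in every vector sample, with a mean difference of -0.94. The other 9 overlapped between the groups. Nfkb2 and Nfkbie were at -0.55 and -0.44 and Rel and Tnfaip3 at -0.80 and -0.87. All 10 mean differences include Myc replicate 5, which has the highest marker sum of its group. It was the lowest Myc sample for every gene but Cd40, with Rel at 0.109 and Tnfaip3 at 1.85 per mille of the marker sum. Nfkb2 and Nfkbie stood there at 8.73 and 8.57. The medians for Nfkb2 were 20.2 per mille in Myc and 26.9 in vector lymphomas, and those for Nfkbie 11.8 and 17.1. The medians for Rel were 6.70 per mille in Myc and 7.08 in vector lymphomas, and those for Tnfaip3 29.9 and 60.4. Traf1 (-0.22), Relb (0.04) and Nfkbia (0.15) lay near 0, and Nfkb1 (0.56) and Rela (0.93) were higher relative to the markers. The part of the B cell share in the falls was not tested beyond these values. Some markers of other cells were higher in Myc lymphomas: 8 of 10 markers of natural killer cells rose and 0 fell, 7 of 10 of neutrophils rose and 0 fell, and 6 of 8 of plasmacytoid dendritic cells rose and 1 fell, where 26.6% of all genes rose and 21.9% fell. Of 12 T cell markers 4 rose and 1 fell, near the share of all genes that rose. The summed level of the plasmacytoid dendritic cell markers was 378 to 2681 CPM (median 891) in Myc lymphomas, highest in Myc replicate 5. In vector lymphomas it was 793 to 920 (median 830). The summed level of the neutrophil markers was 1675 to 16731 CPM in Myc lymphomas and 56.0 to 5878 in vector lymphomas. Vector replicates 7 and 8, the earlier runs, held 1700 and 5878 CPM, within the Myc range, and the other vector samples 56.0 to 932. The part of the run in the rise of the neutrophil markers was not tested. Of 8 markers of conventional dendritic cells, which also carry Cd40, 1 rose and 4 fell, with summed levels of 89.8 to 259 and 90.96 to 230.0 CPM in Myc and vector lymphomas.

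Other genes of the pathway were followed in 5 lists, whose counts stand against 21.9% of all genes that fell and 26.6% that rose in Myc against vector lymphomas, and against 4.4% and 2.97% of 18505 genes within the earlier runs. Receptors that signal to NF-kB fell in 8 of 15 and rose in 0, with a median log2 fold change of -0.62 in Myc against vector lymphomas. Tnfrsf13c, the BAFF receptor, fell by 1.66 ± 0.18 on the log2 scale, from 265 ± 54.0 to 83.8 ± 23.4 CPM (SD, adjusted p = 7.3e-07). Tlr1, a Toll-like receptor for lipopeptides, fell by 1.47 ± 0.18 (adjusted p = 2.9e-06), and Cd180, a relative of the Toll-like receptors on B cells, by 1.71 ± 0.21 (adjusted p = 2.9e-06). Within the earlier runs 5 of the 15 fell, these 3 among them.

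Canonical adaptors and kinases fell in 10 of 21 and rose in 1, with a median of -0.48. Plcg2, the phospholipase that follows the B cell receptor, fell by 1.37 ± 0.16 log2 units (adjusted p = 1.6e-06). Bcl10, an adaptor of antigen receptor signalling to NF-kB, fell by 0.82 ± 0.10 (adjusted p = 1.5e-06). Irak1, a kinase of Toll-like receptor signalling named after its value was seen, was the 1 that rose (0.56 ± 0.11, adjusted p = 2.9e-04, or 0.50 and 0.21 within the earlier runs). Within the earlier runs 2 of the 21 fell, Plcg2 and Bcl10, where 4.4% of all genes fell.

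The kinase NIK (Map3k14), the genes that control its turnover and the adaptor Traf5 fell in 6 of 6, with a median of -1.14. Map3k14 itself fell from 134 ± 34.2 to 43.8 ± 9.26 CPM (SD, -1.61 ± 0.17 on the log2 scale, adjusted p = 3.1e-07). The adaptors Traf5 and Traf2 fell by 1.64 ± 0.17 (adjusted p = 2.7e-07) and 1.21 ± 0.16 (adjusted p = 5.0e-06). Traf2, with Traf3, Birc2 and Birc3, marks NIK for degradation, so the list holds the kinase and its negative controls beside Traf5. Within the earlier runs 2 of the 6 fell, Map3k14 (-1.02, adjusted p = 0.016) and Traf5 (-1.125, adjusted p = 0.012), where 4.4% of all genes fell. Traf2 did not pass there (-0.54, adjusted p = 0.13). With the run term 4 of the 6 fell, where 9.77% of all genes fell.

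Other inhibitors and IkB proteins fell in 9 of 13 and rose in 0, with a median of -0.77. Zc3h12a, an RNase that degrades messages of inflammation, fell by 2.46 ± 0.33 log2 units (adjusted p = 6.8e-06). Tnip1, a partner of A20, fell by 1.125 ± 0.13 (adjusted p = 1.7e-06) and Nfkbid, a nuclear IkB protein, by 1.64 ± 0.30 (adjusted p = 1.6e-04). These 3 also fell within the earlier runs and were the only ones of the 13 to do so.

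Target genes of NF-kB in activated B cells fell in 16 of 25 and rose in 3, with a median of -0.83. Slamf1, a surface receptor of lymphocytes, fell by 3.05 ± 0.25 on the log2 scale, from 68.0 ± 18.9 to 8.23 ± 3.24 CPM (SD, adjusted p = 2.2e-08). Fas, a death receptor, fell by 2.73 ± 0.29 (adjusted p = 3.7e-07), and Cd86, a ligand that stimulates T cells, by 1.70 ± 0.21 (adjusted p = 2.2e-06). The 3 that rose, named after their values were seen, were Ccl4 (1.29 ± 0.40, adjusted p = 0.012), Ebi3 (0.92 ± 0.32, adjusted p = 0.021) and Ccl22 (0.92 ± 0.34, adjusted p = 0.031). Within the earlier runs 8 of the 25 fell and 0 rose.

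In vector lymphomas against normal cells few genes of these lists were called: 1 of 15 receptors rose and 2 fell, 0 of 21 canonical and 0 of 6 non-canonical genes were called, 1 of 13 other inhibitors rose, and 3 of 25 target genes rose and 1 fell. Over all genes 7.46% rose and 3.36% fell. Tnfrsf17, a BAFF and APRIL receptor of plasma cells, rose by 2.99 ± 0.56 log2 units (adjusted p = 0.0017) and Tlr7 fell by 1.42 ± 0.31 (adjusted p = 0.0046). Otulin, which removes linear ubiquitin, rose by 0.76 ± 0.22 (adjusted p = 0.031). Gadd45b rose by 2.15 ± 0.33 (adjusted p = 3.0e-04) and Fas by 1.96 ± 0.36 (adjusted p = 0.0015). Of these 5, only Fas was called within the earlier runs (2.36, adjusted p = 0.049), where 0.665% of all genes were called. In the pooled comparison 5 of 6 plasma cell markers, a list that holds Tnfrsf17, rose and 0 fell. Their sum was 4139 to 8202 CPM in vector lymphomas and 410 to 741 in normal cells. Of the 14 immediate-early and dissociation response genes 7 rose and 0 fell. The part of cell mix or handling in the values of the 5 genes was not tested.

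**Figure D4:**
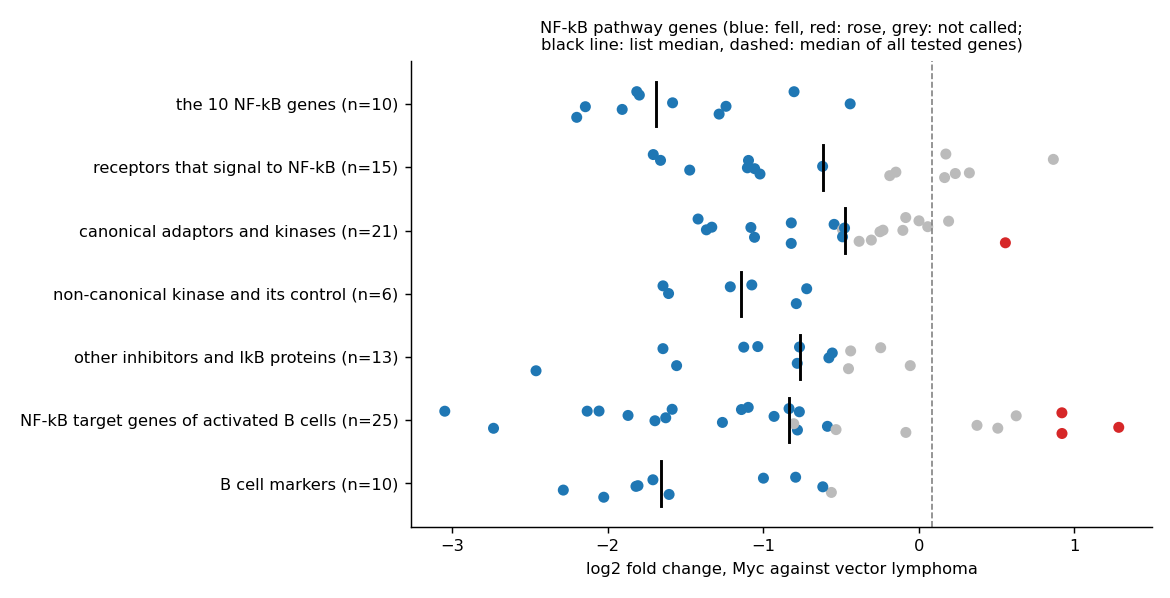
Log2 fold change of Myc against vector lymphoma for the 10 NF-kB genes, the 5 further pathway lists and the B cell markers. Each point is a gene (blue fell, red rose, grey not called), black lines are list medians and the dashed line is the median of all tested genes at 0.08; the list medians lie between -0.48 and -1.69.

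Likeness of pattern was measured as the root mean square difference of log2 CPM over the 20 samples, each gene centred on its mean. Nfkb2 and Nfkbie were nearest to each other among all tested genes (0.23), followed by Il21r for Nfkb2 (0.26) and Bin1 for Nfkbie (0.27). The nearest genes to Nfkb1 were Stat6 (0.092) and Cmtm6 (0.14), and to Rela Cyhr1 (0.13) and Maea (0.14). Relb was nearest to H2-T10 (0.22) and Grap (0.22), Cd40 to Pxdc1 (0.25) and Srpk3 (0.26), Traf1 to Eml2 (0.26) and Lonp2 (0.26), and Nfkbia to Arid5a (0.24) and Traf2 (0.27). The closest genes to Rel were Cep85l (0.52) and Arid5b (0.58), and to Tnfaip3 Klf6 (0.44) and Per1 (0.52), further than for the other 8. The measure is not scaled to the spread of a gene. The SD of log2 CPM over the 20 samples was 1.66 for Rel and 1.65 for Tnfaip3. For the other 8 it ran from 0.27 (Rela) to 1.26 (Cd40). H2-T10 belongs to a family of near-identical genes, so its counts are uncertain.

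Myc replicate 5 departed furthest from its group by gene length. Over 16928 tested genes with a length, its median log2 difference from the other Myc lymphomas was 1.22 in the shortest quartile of exon length and -1.124 in the longest, with 0.39 and -0.38 between. Other samples departed less: vector replicate 7 ran from 0.73 to -0.39, vector replicate 8 from 0.53 to -0.072 and normal replicate 1 from -0.64 to 0.25. Vector replicates 7 and 8 are the only vector samples behind the values within the earlier runs, and the part of length in those values was not tested. Of the NF-kB genes in the longest quartile, Rel held 15 counts there (0.645 CPM, 4.78 below the mean of the other 7 on the log2 scale, or -4.78), Tnfaip3 was at -3.21 and Nfkb1 at -0.998, while Traf1 was at 0.07. Of the other NF-kB genes, Cd40 (1.14), Relb (0.89), Nfkbie (0.61) and Rela (0.55) were highest in this sample among the Myc lymphomas. Nfkbia (0.15), the shortest of the 10, and Nfkb2 (-0.08) were not. Relb and Nfkb2 are in the quartile next to the longest, where the median of this sample was -0.38. The same sample had the least Myc transcript (313 CPM) and the highest B cell marker sum (5945 CPM) of its group. Without it all 10 NF-kB genes remained lower in Myc than in vector lymphomas, with Rel at -1.62, Nfkb1 at -0.70 and Cd40 at -2.37, and 8 of 10 remained lower against normal cells.

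**Figure D5:**
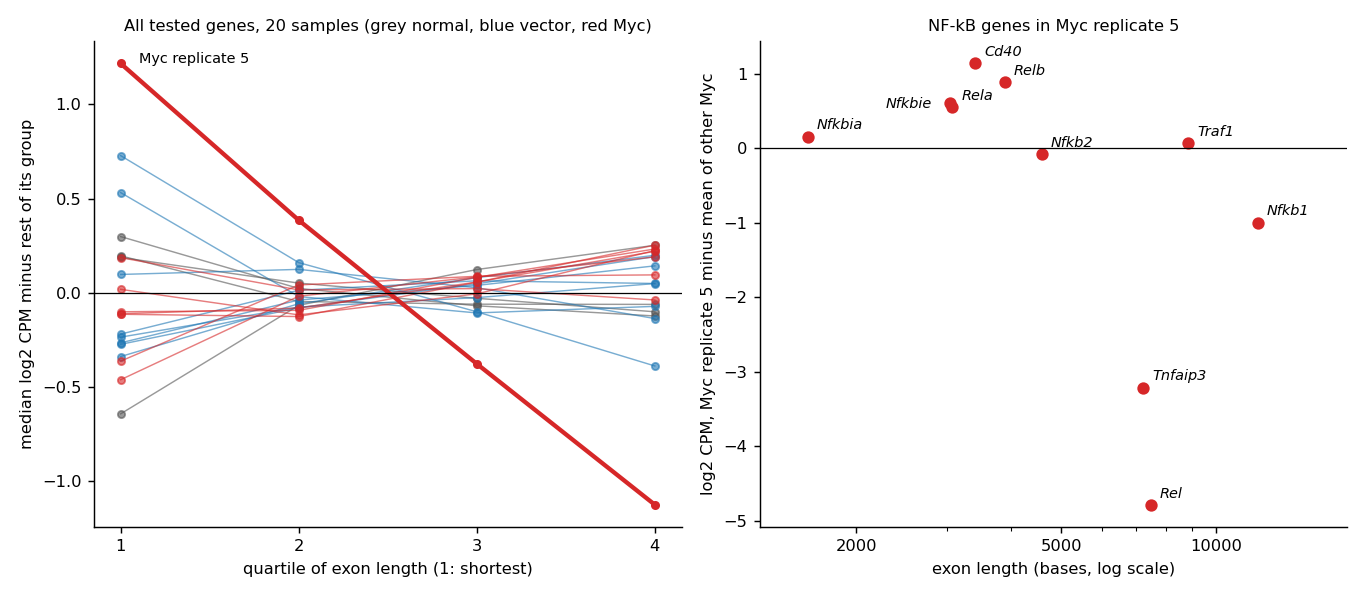
Left, median log2 CPM of each sample minus the rest of its group, over all tested genes, by quartile of exon length; Myc replicate 5 is the thick line from 1.22 to -1.124. Right, log2 CPM of the 10 NF-kB genes in Myc replicate 5 minus the mean of the other 7 Myc lymphomas, against exon length in bases on a log axis; Rel and Tnfaip3 lie lowest, at -4.78 and -3.21.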

How the data were processed

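Per the labels' protocols, poly-adenylated RNA of 20 samples was read on the Ion Proton System. The deposited values are raw read counts per Ensembl gene, 1 column per sample, and the labels record no scaling by the authors. The submitters' processing notes name HTSeq, BWA 0.7.5a and Picard 1.119 with the mouse builds NCBIM37 and mm9, without roles. Reads assigned to no gene (43.0 to 62.9% per sample) stayed out of library sizes and tests.

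Of 37620 genes, edgeR 4.0.16's filterByExpr by group kept 17824. Counts were scaled by TMM, and a single fit of 20 samples in 3 groups was tested two-sided with the quasi-likelihood F test. Genes were called at a Benjamini-Hochberg adjusted p under 0.05 over all genes tested. Log2 CPM used a prior count of 2, and standard errors (SE) came from the F statistic. The fit was tested on simulated counts. Many genes with a true 2-fold change were not called there, so a gene not called may still differ. The limits for passing that test were changed after this was seen. DESeq2 1.42.0, other scaling, no filter, a 2-fold minimum, a run term, the earlier runs alone, the 2 groups alone and each sample left out were the alternatives. Symbols and exon lengths came from GENCODE vM21, promoters from RefSeq (GRCm38.p6), on another build than the files, and no coordinates were joined. Replicate numbers follow accession order and pair nothing.

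The genes named are the 10 chosen ones. Of each list the 3 called genes of smallest p in Myc against vector lymphomas and the 2 in vector lymphomas against normal cells are named, with the 2 genes nearest to each of the 10 and Myc and Ptprc as checks. These genes, the lists and the tests were chosen with earlier results of these data known. The ratios to B cell markers and the split by length were added after the values were seen. One gene that the rule for named genes picked is not reported here.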

Additional observations from a re-analysis of the deposited data

Results flagged for a closer look

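Of 30 sets of values (10 genes in 3 groups), 2 held a sample far from the rest of its group, and chance gives about 1 in 20 such sets. For Rel, Myc replicate 5 was the lowest of the Myc lymphomas, and its gap to the next sample was 0.641 of the whole range of log2 CPM. For Nfkb1 the same sample was the lowest, with a gap of 0.56 of the range. Both genes are in the longest quartile of exon length, in which this sample lay at a median of -1.124 against the rest of its group. The part of length in the 2 low values was not tested.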

How the results depend on the processing

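The falls of Relb, Nfkb2, Nfkbia, Nfkbie, Traf1 and Cd40 in Myc against vector lymphomas kept their direction and call in all 24 other fits each, and those of Rela, Rel, Nfkb1 and Tnfaip3 in 22 of 24, the exceptions being the earlier runs alone and the run term (-0.38, -1.55, -0.48 and -2.07, adjusted p = 0.12, 0.085, 0.11 and 0.091). The count of the 10 was thus 6 in both. A 2-fold minimum on the same fit left 8 of the 10, without Rela and Nfkb1, where 10.4% of all genes fell. In Myc lymphomas against normal cells it left 6 of the 8, where 9.45% of all genes fell. Over all genes the 8654 calls of Myc against vector lymphomas became 5023 with a 2-fold minimum, 3382 with the run term and 1363 within the earlier runs.

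In vector lymphomas against normal cells the single call of the 10 became 0 with the 2-fold minimum, total-count scaling, the run term and the earlier runs, and ranged from 0 to 1 with each sample left out. All calls there went from 1928 to 3503 with the 2 groups alone, 1225 with the run term and 123 within the earlier runs, and from 1089 (without normal replicate 3) to 2139 with each sample left out. With each sample left out, the uncalled values whose sign turned ranged from -0.12 to 0.022 (Nfkb2), -0.15 to 0.040 (Nfkbie) and -0.15 to 0.025 (Cd40), highest without normal replicate 1, and from -0.35 to 0.075 (Rel) and -0.096 to 0.051 (Relb), highest without normal replicate 4.

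In Myc lymphomas against normal cells 7025 calls became 4582 with the 2-fold minimum and 3820 within the earlier runs, and ranged from 4960 to 7398 with each sample left out. Total-count scaling shifted the median of all genes from -0.03 to -0.18 for vector and from 0.08 to -0.11 for Myc lymphomas against normal cells, split the calls as 1032 higher and 866 lower (1329 and 599 with TMM) and as 2965 and 3946 (3831 and 3194), and brought Rela to -0.36 (adjusted p = 0.046) in the second. The cause of these changes was not tested. DESeq2, its size factors in edgeR and no filter changed 0 calls of the 10. No paired analysis was possible because the labels give no replicate numbers shared between groups. At 15 counts, the depth limits the value of Rel in Myc replicate 5.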
